A study of Mus musculus with 5 samples.

Results

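Il3 and Csf2 code for the cytokines interleukin-3 and GM-CSF, and Il3ra, Csf2ra, Csf2rb and Csf2rb2 code for their receptor chains. These 6 genes, of 19938 measured with a single gene symbol, were followed in mouse lung natural helper cells, innate lymphocytes without antigen receptors that are also called group 2 innate lymphoid cells. The genes were taken by name, and each had 1 probe set on the array. They were picked with the result in view that Il3 and Csf2, which are neighbours on chromosome 11, moved in opposite directions, so their differences are given as a description and no test of them is reported. The donors were untreated C57Bl/6 mice, 6 to 8 weeks old, whose lung cells were sorted for the absence of lineage markers, the presence of Sca-1, CD25 and CD127, and low or absent c-Kit. The unstimulated group was 3 samples lysed directly after the sort. The other group, called P/I in the labels, was 2 samples cultured for 3 days in medium with 10% serum, 60 ng/ml of the phorbol ester PMA, an activator of protein kinase C, and 500 ng/ml of the calcium ionophore ionomycin. No cultured sample without these agents was analysed here, so culture and stimulation cannot be told apart.

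IL-3 and GM-CSF are short-range cytokines of activated lymphocytes and mast cells that act on myeloid cells, basophils and mast cells. Each binds an alpha chain of its own, coded by Il3ra or Csf2ra, and signals through a beta chain that carries the kinase JAK2 and activates STAT5. The chain coded by Csf2rb serves IL-3, GM-CSF and IL-5, while Csf2rb2 codes for a closely related mouse chain that serves IL-3 alone. Both cytokine genes are known in T cells for their induction by calcium and protein kinase C signals through NFAT and AP-1, and their mRNAs carry AU-rich elements that shorten their life.

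Values are log2 expression on 5 one-colour arrays. Correlations across probe sets were 0.980 to 0.988 between unstimulated arrays, 0.989 between the P/I arrays and 0.956 to 0.969 between the groups. The gate's markers were high, with Il7r (CD127) at 10.89 to 10.97 and Il2ra (CD25) at 10.65 to 10.73 on the unstimulated arrays and at 10.13 to 10.16 and 10.87 to 10.91 on the P/I arrays, and 16 of 17 measured natural helper cell markers lay above the array median on every array. Ly6a (Sca-1) and Il1rl1 (the IL-33 receptor) were not analysed here. Xist, which silences an X chromosome in female cells, read 9.65 ± 0.56 (SD, n = 3) without and 4.13 ± 0.04 (SD, n = 2) with P/I, and the labels give no sex, so the sex of the mice and the stimulation cannot be told apart either. The labels do not name separate animals or cultures for the samples of a group, and p-values therefore reflect only how far these samples vary, which may be technical. The small number of arrays limits the precision.

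Il3 was low in freshly sorted cells and high after P/I. It read 5.28, 6.43 and 5.12 on unstimulated arrays 1, 2 and 3 and 9.39 and 9.36 on the P/I arrays. The groups were far apart, and unstimulated array 2 stood above the other unstimulated arrays by more than 1 log2 unit. The means were 5.61 ± 0.72 (SD, n = 3) and 9.37 ± 0.02 (SD, n = 2), a difference of 3.76 ± 0.49 (SE), or 13.6-fold. By this difference Il3 ranked 3 from the top among the 19938 genes. Unstimulated arrays 1 and 3 were below their array medians of 5.66 for Il3 and array 2 was above its median of 5.63. The files hold no detection calls, so a low unstimulated level cannot be told from background, and the fold may be a lower bound.

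Csf2, in contrast, was already high in unstimulated cells and somewhat lower after P/I. It read 10.90, 10.97 and 10.75 on the unstimulated arrays and 10.14 and 10.01 on the P/I arrays. The groups did not overlap, although each of the 5 values lay far above the upper quartile of its array (7.03 to 7.11). The means were 10.87 ± 0.11 (SD, n = 3) and 10.08 ± 0.09 (SD, n = 2), a difference of -0.79 ± 0.09 (SE), or 1.73-fold lower, which ranked 757 from the bottom. Leaving out each array in turn kept the difference between 3.52 and 4.18 for Il3 and between -0.86 and -0.73 for Csf2.

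Markers of natural helper cells also differed beside Csf2. The limma fit across all genes (lmFit and eBayes, Benjamini-Hochberg adjusted p under 0.05) called 1.70% of all genes, 0.737% higher and 0.963% lower. Of the 17 measured markers, 4 fell and none rose, and the median difference was -0.45 against 0.00 for all genes. Il7r, the IL-7 receptor gene, fell by 0.77 on the log2 scale (SE 0.03, adjusted p = 0.0229). The others were Rora, which codes for a transcription factor these cells require (-0.82 ± 0.07 SE, adjusted p = 0.0456), Id2, an inhibitor of E proteins (-0.78 ± 0.05 SE, adjusted p = 0.0352), and Il17rb, the IL-25 receptor gene (-3.23 ± 0.32 SE, adjusted p = 0.0492). Of the 5 fits with 1 array left out, Il7r stayed called in the fits that left out 1 of the P/I arrays, and Rora, Id2 and Il17rb were called in none. Groups did not overlap in 9 of the 17 in the lower direction and in 4 in the higher (14.0% and 18.6% of all genes). The part of these cells in the difference of Csf2 was not tested.

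**Figure D1:**
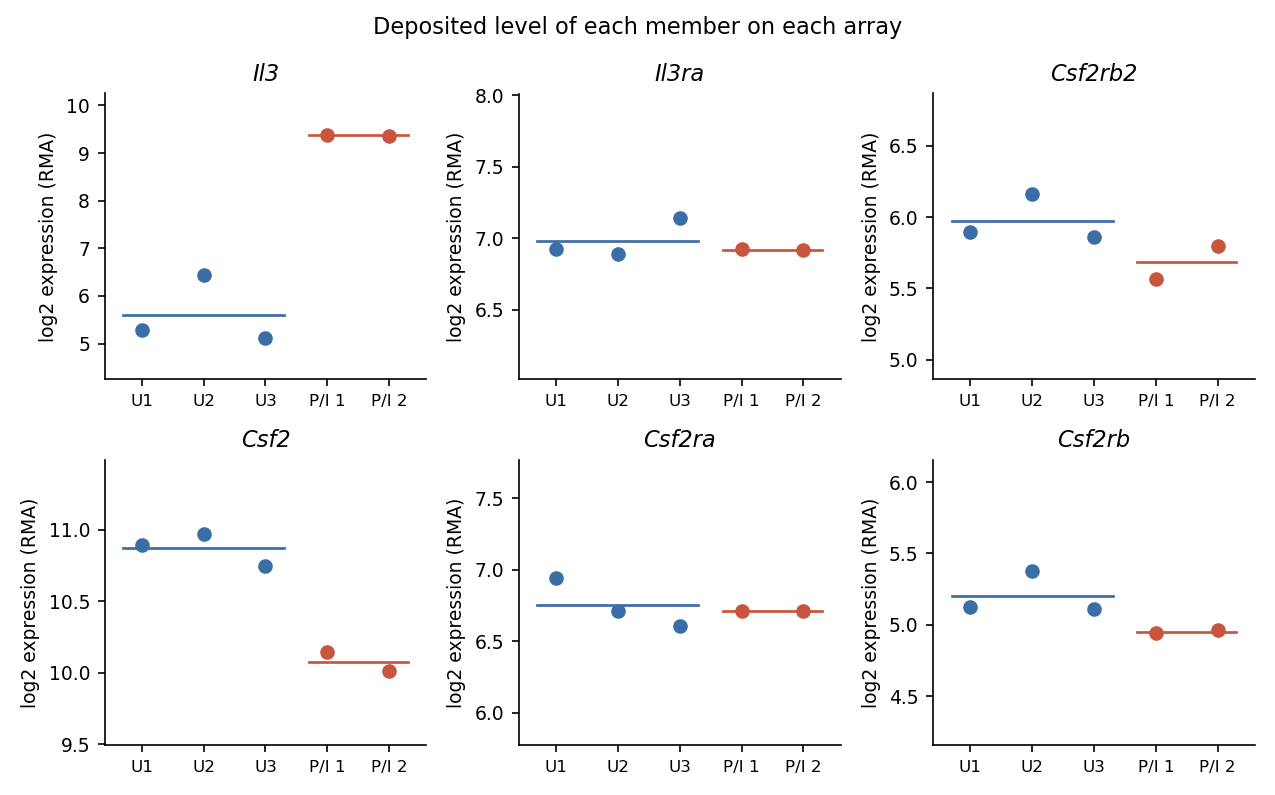
Each panel plots the log2 expression (vertical axis) of 1 gene on unstimulated arrays 1 to 3 (U1 to U3, blue) and P/I arrays 1 and 2 (red), with a line at each group's mean; the vertical axis spans more log2 units for Il3 than for the others. Il3 is near 5 to 6 on the unstimulated arrays and above 9 after P/I, Csf2 is lower by 0.79, and the alpha chain genes Il3ra and Csf2ra overlap between the groups.

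The receptor genes differed far less than Il3. Il3ra, the IL-3 alpha chain, read 6.92, 6.89 and 7.14 on the unstimulated arrays and 6.92 on both P/I arrays. The groups overlapped, and the difference was -0.06 ± 0.09 (SE). Csf2ra, the GM-CSF alpha chain, read 6.94, 6.71 and 6.60 without P/I and 6.71 on both P/I arrays, with a difference of -0.04 ± 0.12 (SE). The P/I values of Csf2ra lay inside the unstimulated range, and its value on unstimulated array 2 equalled both P/I values to 5 decimals. For Il3ra, unstimulated array 1 equalled P/I array 1 in the same way. Such repeated values occurred in 62.0% of all genes and in 2 of the 6 genes here, and the spread of these genes between replicates rests on them.

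Both beta chain genes were slightly lower after P/I. Csf2rb, the chain shared with GM-CSF and IL-5, read 5.13, 5.37 and 5.11 on the unstimulated arrays and 4.94 and 4.96 on the P/I arrays. The groups did not overlap, but all 5 values lay below the array medians, and no detection call says whether they exceed background. Its difference was -0.25 ± 0.10 (SE), from a mean of 5.20 ± 0.15 (SD, n = 3) to 4.95 ± 0.01 (SD, n = 2). Csf2rb2, the chain specific to IL-3, read 5.89, 6.16 and 5.86 without and 5.57 and 5.80 with P/I. The gap between the lowest unstimulated and the highest P/I value of Csf2rb2 was narrow beside a difference of -0.29 ± 0.14 (SE). The genes are closely related, and whether the signal of each probe set came in part from the other gene was not tested.

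Of the 6 genes, 4 had groups that did not overlap, 1 higher and 3 lower, against 32.5% of all genes in either direction (18.6% higher, 14.0% lower). Since the genes were chosen on this contrast, nothing is read from these counts. Among the unstimulated arrays, 4 of the 6 (Il3, Csf2, Csf2rb and Csf2rb2) were highest on array 2, where 23.7% of all genes were highest. In bulk samples, fewer cells of a type and less RNA per cell cannot be told apart.

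The upstream sequences of the cytokine genes are shown because the pair lie next to each other yet differed in direction. They are the 250 bases before the annotated start in RefSeq's GRCm38.p6 table, which held 5 of the 6 genes (not Csf2rb), and both genes run on the minus strand with start sites 17380 bases apart. Capitals mark matches on either strand to the NFAT core GGAAA, the RUNX motif TGTGGT, the GATA motif AGATAA and the TATA motif TATAA.
Il3, chr11:54267280-54267529, minus strand: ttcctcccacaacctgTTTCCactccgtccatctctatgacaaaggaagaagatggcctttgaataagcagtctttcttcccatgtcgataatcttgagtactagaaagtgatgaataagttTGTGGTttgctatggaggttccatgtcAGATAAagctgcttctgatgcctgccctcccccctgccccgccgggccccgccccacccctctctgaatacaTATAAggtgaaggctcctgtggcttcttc
Csf2, chr11:54249900-54250149, minus strand: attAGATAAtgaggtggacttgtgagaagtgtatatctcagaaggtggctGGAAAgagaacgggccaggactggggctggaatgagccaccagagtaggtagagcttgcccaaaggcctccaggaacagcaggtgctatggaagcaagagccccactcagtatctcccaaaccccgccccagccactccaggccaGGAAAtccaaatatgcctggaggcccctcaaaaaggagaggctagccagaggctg
A TATAA began 29 bases before the start of Il3 and none was found in the Csf2 window, while 22.8% of 32851 promoters held one. The RUNX letters began 128 bases before the Il3 start and were not found for Csf2 (14.0% of promoters). GGAAA occurred once before Il3, on the opposite strand at 234 bases, and at 200 and 55 bases before Csf2 (55.6% of promoters). AGATAA began 101 bases before Il3 and 247 before Csf2 (9.99% of promoters). The AP-1 letters TGANTCA were in neither window (6.75% of promoters). The longest runs of bases common to both windows were CCCCGCCCCA, which began 55 bases before Il3 and 79 before Csf2 and occurred in 1.39% of promoters, and TGCTATGGA, at 121 and 117 bases and in 0.174% of promoters. These are matches of letters in a window set by the annotated start, and enhancers farther away were not searched. Whether transcription in these cells began at the annotated starts was not tested. A motif not found in a window may therefore lie outside it, and the 2 windows may not cover like parts of the promoters.

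Around the pair on chromosome 11 lies the type 2 cytokine cluster. Of 23 measured neighbours among the 24 listed genes, Il4 rose and Fnip1, Rapgef6 and Aff4 fell (called shares over all genes 0.737% higher and 0.963% lower), and the median difference was -0.08 against 0.00 for all genes. The nearest gene on the Il3 side, Acsl6, which codes for an acyl-CoA synthetase, read 4.69 on every array. This was the same value to 5 decimals and below every array median, so it may be background. The gene next to Csf2 on the other side, P4ha2, a collagen prolyl hydroxylase gene, differed by -0.20 ± 0.05 (SE, adjusted p = 0.137). None of the 6 genes between Csf2 and Il5, which were P4ha2, Pdlim4, Slc22a4, Slc22a21, Slc22a5 and Irf1, was called by limma. An unadjusted p under 0.05 was found for 1 of the 6, and for 3973 of all 19938 genes. The differences of the 6 ran from -0.20 to 0.16. Pdlim4, Slc22a4 and Slc22a21 lay at or below the array medians, and Pdlim4 read the same value on 4 arrays. No detection call says whether they exceed background.

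Farther along, the cytokine genes differed in the direction of Il3. Il4, the type 2 cytokine, read 7.49, 7.57 and 7.08 on the unstimulated arrays and 10.21 and 10.29 on the P/I arrays. It rose 7.30-fold (2.87 ± 0.18 SE, adjusted p = 0.0323). Il13 read 9.46, 9.73 and 8.56 without and 11.51 and 11.81 with P/I, groups that did not overlap, but its difference did not pass (2.41 ± 0.43 SE, adjusted p = 0.0942). Il5, the eosinophil growth factor whose receptor uses the Csf2rb chain, differed by 0.71 ± 0.33 (SE, adjusted p = 0.382). On the far side of Il3, Fnip1, which codes for a folliculin partner, fell (-0.59 ± 0.06 SE, adjusted p = 0.0479), as did the Rap exchange factor gene Rapgef6 (-0.81 ± 0.08 SE, adjusted p = 0.0492). Aff4, a transcription elongation gene beyond Il4, fell by 1.29 on the log2 scale (SE 0.12, adjusted p = 0.0456). With 1 array left out, Il4 was called only in the fit without unstimulated array 3 and Rapgef6 only in those that left out 1 of the P/I arrays. Fnip1 and Aff4 were called in none of these 5 fits.

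**Figure D2:**
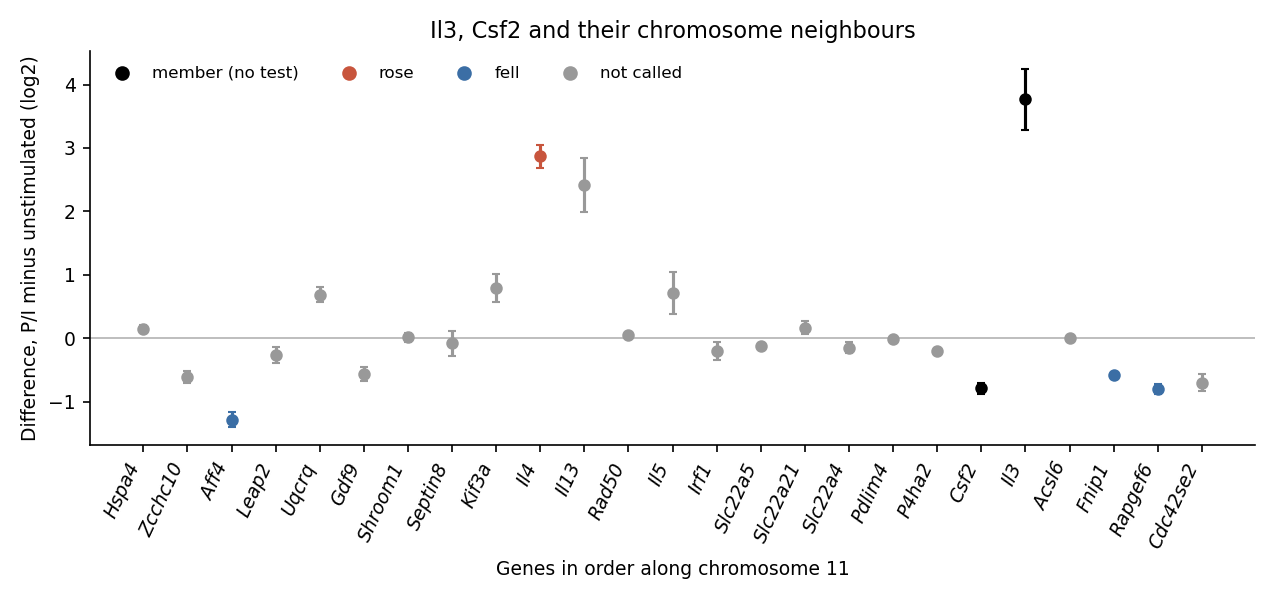
Points give the difference between P/I and unstimulated arrays (log2, vertical axis) for each measured gene in its order along chromosome 11 (horizontal axis, not to distance), with bars for the SE of the fit; black marks Il3 and Csf2, red a gene that rose, blue one that fell. Il3 at 3.76 and Csf2 at -0.79 stand side by side, and Il4 and Il13 are the next highest. The 6 genes between Csf2 and Il5 lie close to 0, but Pdlim4, Slc22a4 and Slc22a21 were dim, at or below the array medians.

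Of 13 listed cytokine and receptor relatives, all measured, Il4 and Il9 rose and none fell (0.737% of all genes were called higher and 0.963% lower), and the median difference was 0.00, as for all genes. Il9, the mast cell growth factor gene, rose 4.57-fold (2.19 ± 0.15 SE, adjusted p = 0.0352). Il2, the T cell growth factor gene, read 7.91, 8.81 and 7.90 on the unstimulated arrays and 6.50 and 6.15 on the P/I arrays. Its groups did not overlap, and like Il3 it was highest of the unstimulated arrays on array 2, but its difference did not pass (-1.88 ± 0.37 SE, adjusted p = 0.110). Of the other colony-stimulating factors, Csf1 differed by 0.45 ± 0.15 (SE, adjusted p = 0.250) and Csf3 by -0.03 ± 0.19 (SE, adjusted p = 0.993). Il5ra, the IL-5 alpha chain gene, read 3.62 to 3.91 over the 5 arrays, under the lower quartile of each (4.46 to 4.50), and Csf3r, the G-CSF receptor gene, differed by -0.24 ± 0.12 (SE, adjusted p = 0.422). Crlf2, of the TSLP receptor, differed by 0.02 ± 0.07 (SE, adjusted p = 0.933). With 1 array left out, Il4 was called only in the fit without unstimulated array 3 and Il9 only in those that left out 1 of the P/I arrays.

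The signalling chain below the beta receptors showed no called gene. By limma none of the 24 measured of 30 listed genes passed, and the median difference was -0.01. An unadjusted p under 0.05 was found for 5 of the 24, and for 3973 of all 19938 genes. Jak2, the kinase held by the beta chains, read 10.58, 10.63 and 10.25 on the unstimulated arrays and 10.01 and 10.09 on the P/I arrays. The groups did not overlap, but the difference did not pass (-0.44 ± 0.14 SE, adjusted p = 0.225). For the STAT5 genes the differences were 0.05 ± 0.09 (SE, adjusted p = 0.724) for Stat5a and -0.02 ± 0.03 (SE, adjusted p = 0.760) for Stat5b. The widest difference of the list was that of Ptpn6, which codes for the phosphatase SHP-1 that damps cytokine receptors, at 1.20 ± 0.18 (SE, adjusted p = 0.0773). Leaving out P/I array 2 gave 1 gene called lower, and no other array left out gave a call.

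The list of STAT5 target and feedback genes also held genes of the ERK pathway, among them Spred1. Of its 21 measured genes, Pim1, Bcl2 and Cish fell and none rose (0.963% of all genes were called lower and 0.737% higher). The median difference of the list was -0.09. Pim1, a survival kinase gene, read 8.30, 8.53 and 8.20 on the unstimulated arrays and 6.48 and 6.68 after P/I (-1.76 ± 0.13 SE, adjusted p = 0.0369). Bcl2, which codes for an inhibitor of apoptosis, fell 2.03-fold (-1.02 ± 0.07 SE, adjusted p = 0.0352). Cish, a feedback inhibitor gene switched on by STAT5, read 8.59, 8.58 and 8.49 without and 8.06 and 7.99 with P/I, and fell by 0.53 on the log2 scale (SE 0.05, adjusted p = 0.0441). Those with the widest higher differences, the ERK inhibitor gene Spred1 (1.29 ± 0.15 SE, adjusted p = 0.0606) and the cyclin gene Ccnd2 (0.77 ± 0.15 SE, adjusted p = 0.104), did not pass. These genes answer to many other signals. With 1 array left out, Bcl2 was called only in the fits that left out 1 of the P/I arrays, and Pim1 and Cish were called in none of the 5 fits.

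**Figure D3:**
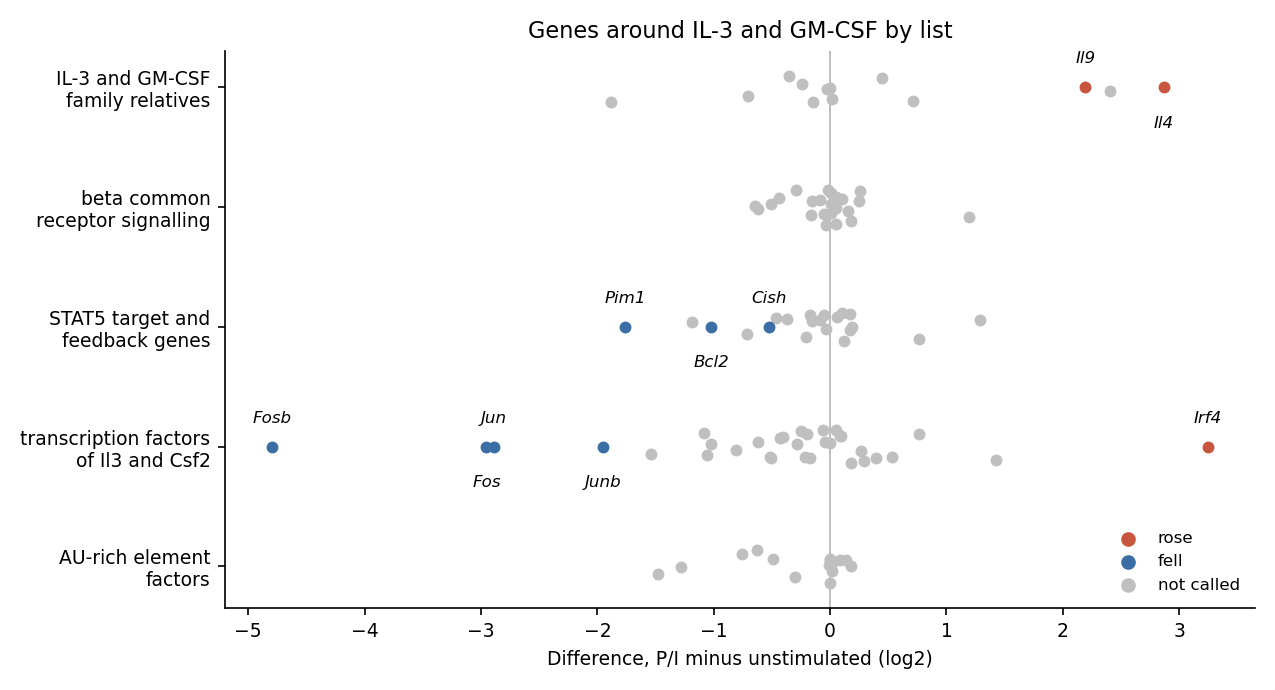
Each point is the difference between P/I and unstimulated arrays (log2, horizontal axis) of 1 gene in the list named on the vertical axis, with red for genes that rose, blue for genes that fell and grey for genes not called; the vertical scatter of grey points has no meaning. The transcription factor list is the widest, from Fosb at -4.80 to Irf4 at 3.25, and no gene of the receptor signalling or AU-rich element lists was called.

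The listed transcription factors, most of them known to act on cytokine genes such as Il3 and Csf2, differed in both directions. Of 33 measured of 36 listed, Irf4 rose, Fosb, Fos, Jun and Junb fell (0.737% of all genes were called higher and 0.963% lower), and the median difference was -0.22. Fosb, a subunit of AP-1, read 11.30, 11.19 and 11.33 on the unstimulated arrays and 6.43 and 6.53 on the P/I arrays, and fell 27.8-fold (adjusted p = 0.0105). Fos fell 7.74-fold and Jun 7.42-fold (adjusted p = 0.0229 and 0.0358), and Junb fell 3.87-fold (adjusted p = 0.0352). Irf4, a factor induced by antigen receptor signals, read 6.65, 7.08 and 6.97 without and 10.03 and 10.26 with P/I, and rose 9.49-fold (adjusted p = 0.0271). Among those that did not pass, the AP-1 partner gene Batf differed by 1.43 ± 0.21 (SE, adjusted p = 0.0753), Nfatc1 by 0.76 ± 0.14 (adjusted p = 0.0993), Nfatc2 by -0.51 ± 0.11 (adjusted p = 0.122) and the NF-kB subunit gene Rel by -1.02 ± 0.19 (adjusted p = 0.0990). Gata3, the regulator of type 2 cytokine genes, differed by -0.51 ± 0.10 (SE, adjusted p = 0.107). With 1 array left out, Fosb was called in the fits that left out unstimulated array 3 or 1 of the P/I arrays, and Fos in those that left out 1 of the P/I arrays. Irf4, Jun and Junb were called in none of the 5 fits.

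Proteins that bind AU-rich elements help set how long Il3 and Csf2 mRNA lasts. The list joined their genes with other mRNA decay genes, among them Cnot1, Pan2, Rc3h1, Rc3h2 and Zc3h12a. By limma none of the 15 measured genes of 16 listed passed, and the median difference was 0.00. An unadjusted p under 0.05 was found for 5 of the 15, and for 3973 of all 19938 genes. Groups did not overlap in 6 of the 15, all lower after P/I (14.0% of all genes were apart in this direction). The 6 included Rc3h1, Zc3h12a and Pan2. Zfp36, which codes for the decay factor tristetraprolin, read 10.08, 9.62 and 9.89 on the unstimulated arrays and 8.43 and 8.74 on the P/I arrays (-1.28 ± 0.19 SE, adjusted p = 0.0744). Its relative Zfp36l2 differed by -1.48 ± 0.31 (SE, adjusted p = 0.121), with 6.10 and 7.01 on P/I arrays 1 and 2. The stabilising factor gene Elavl1 differed by 0.18 ± 0.11 (SE, adjusted p = 0.472). With P/I array 2 left out 1 gene of the list was called lower, and with any other array left out none was.

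The genes whose profile over the 5 arrays was most like that of each cytokine were found by the root mean square difference between profiles centred on their own means. For Il3 they were Idi2 (0.355 log2 units), Tigit (0.432), Havcr2 (0.461), Idi1 (0.464) and Irf4 (0.467). Idi1 and Idi2 code for isoprenoid enzymes, and Tigit and Havcr2 for inhibitory receptors of lymphocytes. Genes picked this way share the direction of the difference by construction, so no test of it is given. On unstimulated array 2 Il3 lay above the other unstimulated arrays more than any of the 5 did. For Csf2 the most alike were Deptor, an mTOR inhibitor gene (0.026), Ssbp2 (0.039), Cebpb (0.044), Galnt7 (0.046) and Gpcpd1 (0.048). Cebpb, a transcription factor of the list above, differed by -0.81 ± 0.08 (SE) and Galnt7, a glycosyltransferase gene, by -0.80 ± 0.05 (SE). Without unstimulated array 2 no gene of the array was called.

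**Figure D4:**
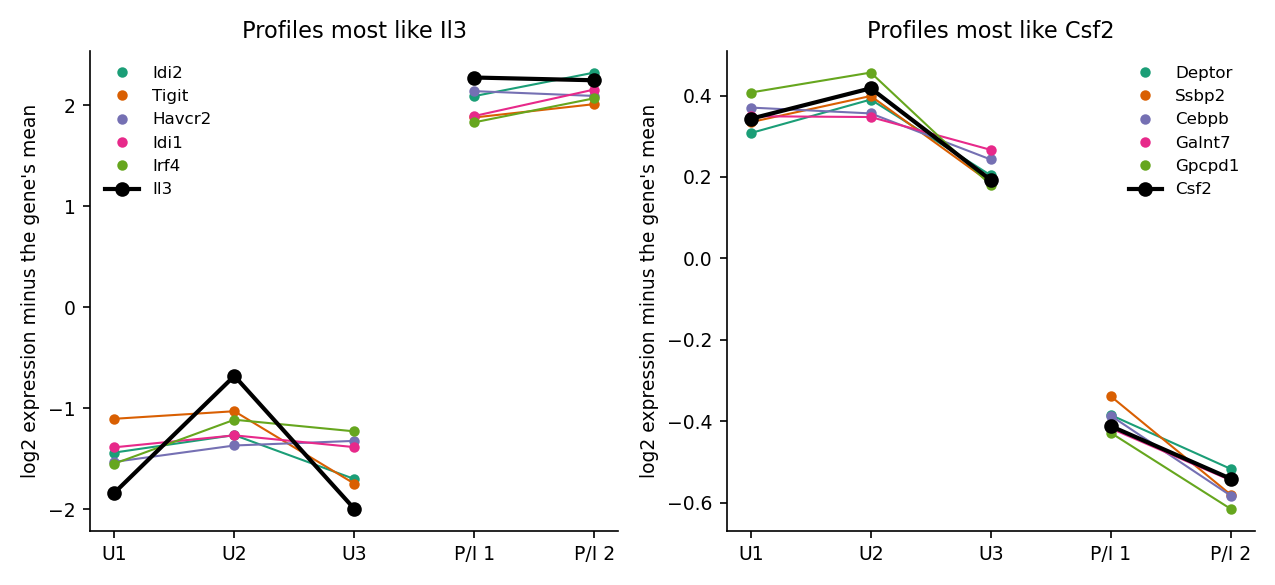
Each gene's log2 expression minus its mean over the 5 arrays (vertical axis) is drawn for unstimulated arrays 1 to 3 (U1 to U3) and P/I arrays 1 and 2, with Il3 (left) and Csf2 (right) in black and the 5 genes most like each in colour; lines join arrays of a group and imply no order. The vertical axis differs between the panels. Il3 has a peak on unstimulated array 2 that its nearest genes share less, whereas the genes near Csf2 follow it closely.

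Markers of other cells differed between arrays in ways that ran beside these genes. Il3, Csf2 and both beta chain genes were highest of the unstimulated group on array 2, as were 23.7% of all genes. Also highest there were 10 of 12 T cell, 5 of 7 NK cell, 4 of 7 B cell and 7 of 10 dendritic cell markers. The same held for 10 of 17 natural helper cell markers. The mean log2 level of the T cell markers was 7.32, 7.56 and 6.77 on the unstimulated arrays and 6.99 and 6.82 on the P/I arrays. Some of these markers are also transcribed in natural helper cells, and Cd3g read 10.21 to 10.56 without P/I. Their part in the Il3 value of unstimulated array 2 was not tested. Without that array the difference in Il3 was 4.18, as against 3.76 with it.

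The beta chain genes are strongest in myeloid cells, and some myeloid markers were lower after P/I as well. The 17 measured macrophage and monocyte markers averaged 6.35, 6.12 and 6.00 on the unstimulated arrays and 5.68 and 5.60 on the P/I arrays. Their median difference was -0.18. Groups did not overlap in 7 of the 17, all lower after P/I, against 14.0% of all genes. Lyz2, the lysozyme gene of macrophages, read 7.88, 7.50 and 6.49 without and 4.11 and 3.98 with P/I (adjusted p = 0.0778). The macrophage marker Marco, counted among the 7 at a difference of -0.03, read 4.87 to 4.89 over all arrays, below every array median. Ccr2, also among the 7, read 10.41, 10.50 and 10.87 without and 9.45 and 9.22 with P/I. Pparg, whose groups overlapped, read 9.65 to 10.07. Both lay far above the mean of the list, and whether natural helper cells gave their signal was not tested. Limma called none of the 17 markers (3 at an unadjusted p under 0.05, against 3973 of all 19938 genes). Neutrophil markers averaged 5.12 to 5.94 on the unstimulated arrays and 4.76 to 4.79 on the P/I arrays. Their median difference was -0.14, in a range from -3.15 for S100a9 to 0.30 for Ly6g. Of the unstimulated arrays, array 1 was highest for 11 of the 17 macrophage and 7 of the 10 neutrophil markers (22.1% of all genes). Csf2rb and Csf2rb2 were highest on array 2. The part of myeloid cells in the differences of Csf2rb and Csf2rb2 was not tested.

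Mast cells and basophils make and answer IL-3. Their 12 markers averaged 4.91 to 4.95 on the unstimulated arrays and 4.59 to 4.65 on the P/I arrays. The median difference was only -0.03, in a range from -2.80 for Cpa3 to 0.23 for Hdc. Limma called none (1 at an unadjusted p under 0.05, against 3973 of all 19938 genes). Cpa3, a mast cell carboxypeptidase gene, read 6.47, 7.48 and 6.74 without and 4.11 and 4.08 with P/I (adjusted p = 0.0640). Of the 12 markers, 3 lay below the lower quartile on every array, the IgE receptor gene Ms4a2 and the protease genes Mcpt4 and Tpsab1. Fcer1a, the IgE receptor alpha chain gene, read 3.84 to 4.79 without and 3.33 and 3.72 with P/I. Gata2, a transcription factor of mast cells and other blood cells, was above the median on every array (6.02 to 6.56). The part of mast cells and basophils in the difference of Il3 was not tested. The 6 measured eosinophil markers averaged 4.98 to 5.33 without and 5.13 to 5.18 with P/I. The 10 dendritic cell markers averaged 5.09 to 5.40 and 5.08 to 5.12, and the 15 markers of structural lung cells 6.18 to 7.14 and 5.82 to 5.92. Of these 15, groups did not overlap in 7, all lower after P/I (14.0% of all genes). Unstimulated array 1 was highest of its group for 12 (22.1% of all genes). The median difference of the 15 was -0.27, in a range from -2.74 for Cdh5 to 0.04 for Krt8, and limma called none. Scgb1a1 read 11.17, 10.58 and 8.67 without and 6.95 and 7.97 with P/I. The part of structural cells was not tested.

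**Figure D5:**
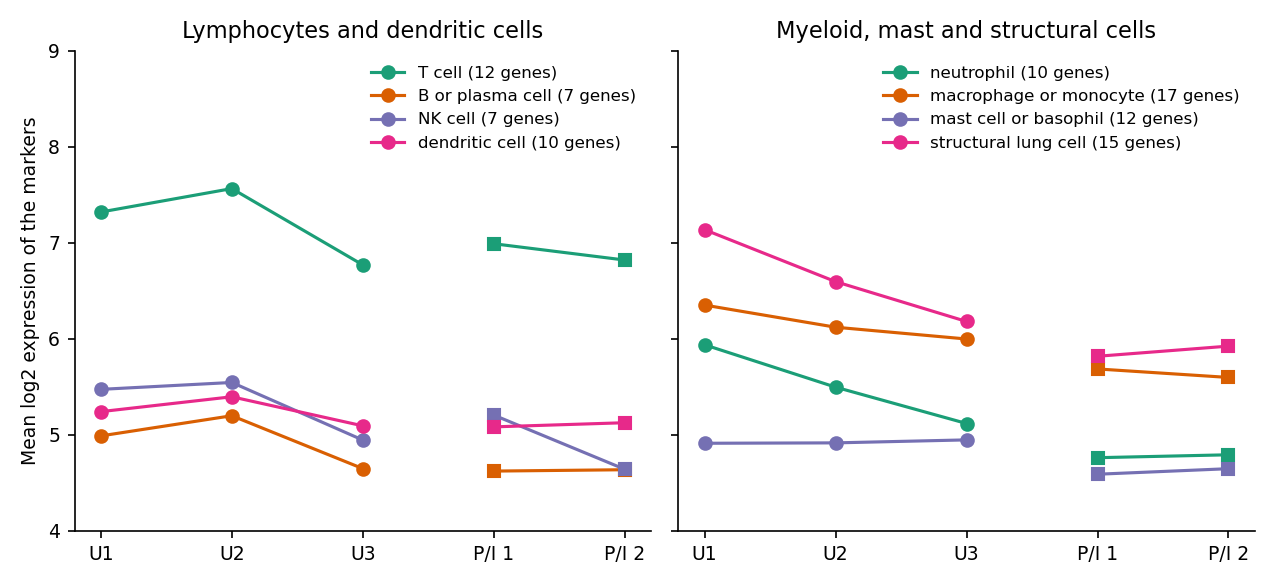
The mean log2 expression (vertical axis) of each list of markers is drawn for unstimulated arrays 1 to 3 (U1 to U3, circles) and P/I arrays 1 and 2 (squares), with lines that join arrays of a group and imply no order. The means of T cell, B cell, NK cell and dendritic cell markers are highest on U2. Those of neutrophil, macrophage and structural markers are highest on U1 and lower after P/I.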

How the data were processed

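The deposited values were made with RMA, which the submitters' processing notes name. The authors' deposited values lie on a log2 scale, which is the scale RMA gives after background correction, normalization between arrays and summary per probe set. Its version is not given in the sources used here. RNA was extracted with Trizol and labelled with biotin, per the labels' protocols. Of 35556 probe sets, 21789 had 1 gene symbol in the platform annotation and 1621 had several. The other 12146 were unnamed. Entrez numbers matched 21698 of the probe sets with 1 symbol to RefSeq without changing a symbol, and a gene with several probe sets was represented by the one with the highest mean.

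The fit of P/I against unstimulated arrays used limma 3.58.1 under R 4.3.3 (lmFit, eBayes, no filter, Benjamini-Hochberg adjustment over 19938 genes, called under 0.05). Differences are P/I minus unstimulated, ± SE of the fit, with n = 3 and 2. The script was tested on simulated data. Figures used matplotlib 3.10.9.

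The members and lists were chosen with earlier results of these data known. The naming rule took the 6 genes, the 5 profiles most like each cytokine, up to 4 called genes per list, and Jak2, the STAT5 genes, relatives and neighbours whatever their p. Some relatives (Kitl, Tslp, Il7) and neighbours (Hspa4, Zcchc10, Leap2, Uqcrq, Gdf9, Shroom1, Septin8, Kif3a, Rad50, Cdc42se2) were nevertheless not described above. None of them was called, and their differences ran from -0.70 for Kitl and Cdc42se2 to 0.79 for Kif3a. Junb, Ptpn6, Spred1, Ccnd2, Batf, Nfatc1, Nfatc2, Rel, Gata3, Zfp36, Zfp36l2, Elavl1 and the individual cell type markers were named after their values were seen, and the motifs were chosen then too. Alternatives were other variance moderation, a filter on dim genes, other probe set summaries, other normalizations, a block for the replicate number, and each array left out in turn.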

Additional observations from a re-analysis of the deposited data

How the results depend on the processing

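The differences of the 6 genes moved by less than the spread between replicates under every alternative run. They ran from 3.52 to 4.18 for Il3, -0.86 to -0.73 for Csf2, -0.12 to 0.05 for Csf2ra, -0.30 to -0.17 for Csf2rb (absent from the filtered fit), -0.40 to -0.17 for Csf2rb2 and -0.11 to 0.01 for Il3ra. The signs of Csf2ra and Il3ra were therefore not settled. The number of genes called was not stable. It was 147 higher and 192 lower as reported, 45 and 66 with robust variances, 824 and 716 among genes above the median, 660 and 526 after median centring, and 825 and 729 after a further quantile normalization. Higher calls made up 43.4% as reported, 53.5% with the filter, 55.6% after centring and 53.1% after quantile normalization. With the replicate number as a block limma called 0 higher and 0 lower (3568 genes had an unadjusted p under 0.05). The labels do not say that numbers pair samples. Deviations of same-numbered arrays correlated at -0.145 and -0.058. With only 2 P/I arrays their deviations mirror each other, so these values cannot decide whether the numbers pair samples. Leaving out 1 array gave 0 to 361 higher and 0 to 413 lower, with 0 in both directions when unstimulated array 2 was dropped (3024 genes had an unadjusted p under 0.05). With a P/I array left out, the lone one is assumed to vary like the others. The causes were not tested. Of 156 list counts under these alternatives, 91 stayed within 1.5 times, 36 were lower and 29 higher. The 91 include counts that were 0 as reported and stayed 0, so they overstate how well the calls held. The lists without a call were not empty everywhere: receptor signalling had 1 higher and 3 lower, and the AU-rich list 4 lower, among genes above the median.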
